A study of Mus musculus with 8 samples.

Results

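The genes described here encode the mitochondrial oxidation of fatty acids in mouse liver. They are 35 of the 17810 genes in the deposited count table, taken by gene symbol: acyl-CoA synthetases, the carnitine shuttle, the enzymes of the beta-oxidation spiral, the electron transfer flavoprotein and 4 acyl-CoA thioesterases. The rule that picks them reads gene symbols only, but the members were chosen with earlier results of these data known. The libraries were bulk RNA-Seq of livers from 4 WT and 4 HKO male mice, 1 library per liver, after 3 months on CD-HFD, a fat-rich diet without added choline, begun at 8 weeks of age, so that the mice were 5 months old and had been fasted before collection. HKO mice carried floxed miR-33 alleles and Cre recombinase driven by the albumin promoter, which is active in hepatocytes; miR-33 in the other cells of the liver was not measured here. WT mice were littermates on the same diet; whether they carried the floxed alleles is not given in the sources used here, and no mice on a control diet are in this comparison. The question put to the genes was how the RNA of fatty acid oxidation enzymes differs when hepatocytes lack miR-33 in a steatotic liver.

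A long-chain fatty acid is first joined to coenzyme A, carried into the mitochondrion as a carnitine ester, and then shortened from its carboxyl end in repeated rounds. Each round has a dehydrogenation, a hydration, a second dehydrogenation and a thiolytic cleavage that releases acetyl-CoA. The electrons of the first step pass through the electron transfer flavoprotein to ubiquinone, and in fasting liver much of the acetyl-CoA becomes ketone bodies. In hepatocytes the nuclear receptor PPARA, which is bound by fatty acids, is the best known transcriptional activator of these genes, and miR-33 is known to repress several of them, Cpt1a and Hadhb included.

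The mature miRNA that HKO hepatocytes lack is shown first, since its seed (bases 2 to 8 from the 5′ end, in capitals) defines the sites searched for in the member genes. It is encoded at chr15:82198127-82198147 on the plus strand (RefSeq, GRCm38.p6).
miR-33-5p: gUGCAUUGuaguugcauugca
The longest annotated 3′UTR (the untranslated end of the mRNA) of each gene was searched for CAATGCA, the complement of that seed. It was also searched for AATGCAA, in which bases 2 to 7 are matched and followed by an A. Of the 35 genes, 4 held a match, which is 11.4%, beside 16.2% of the 11523 tested genes with an annotated 3′UTR (1868 genes). Those 4 sites are the only ones in the set, and each is printed on the strand of its mRNA with the match in capitals (GENCODE M21, GRCm38).
Cpt1a, chr19:3385475-3385504, plus strand: tgagcagttacCAATGCAAttttttactcc
Crat, chr2:30400839-30400868, minus strand: actgaggcagaCAATGCAtgtggagttgga
Hadhb, chr5:30184138-30184167, plus strand: caatgccatttCAATGCActaccaagtgat
Acsm5, chr7:119542799-119542816, plus strand: AATGCAAcccaagagaga
Cpt1a had the only match of 8 bases, which joins both words, and the match of Acsm5 began at base 1 of the 3′UTR. A match is a run of letters and was not tested as a binding site. None of the 4 genes was called higher in HKO livers: Cpt1a and Crat were called lower, and Hadhb and Acsm5 were not called.

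Taken gene by gene, 32 of the 35 had a negative log2 fold change (HKO over WT) and 3 a positive one, against 48.4% of all 12395 tested genes with a negative one. A gene was called when its adjusted p was under 0.05 by the quasi-likelihood test of edgeR, with p-values adjusted over all tested genes by the Benjamini-Hochberg method. By this rule 15 genes were called lower in HKO livers and 0 higher, where 3.37% of all tested genes were called lower and 1.66% higher (5.03% in either direction). At an unadjusted p under 0.05 the numbers were 24 lower and 1 higher, against 10.7% and 9.08% of all tested genes. DESeq2 called 19 lower (5.07% of all tested genes) and 0 higher (3.11%), and limma-voom 16 lower (3.24%) and 0 higher (1.67%); both lists hold the 15 genes. With total counts in place of TMM scaling 20 were called lower and 0 higher, where 5.01% and 0.96% of all tested genes were called. The median log2 fold change was -0.39 over the 35 genes and 0.01 over all tested genes. Most of the called differences were modest: 13 of the 15 HKO means lay between 64.5% and 81.9% of the WT mean, and the other 2 were those of Crat (29.6%) and Acot2 (21.9%).

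**Figure D1:**
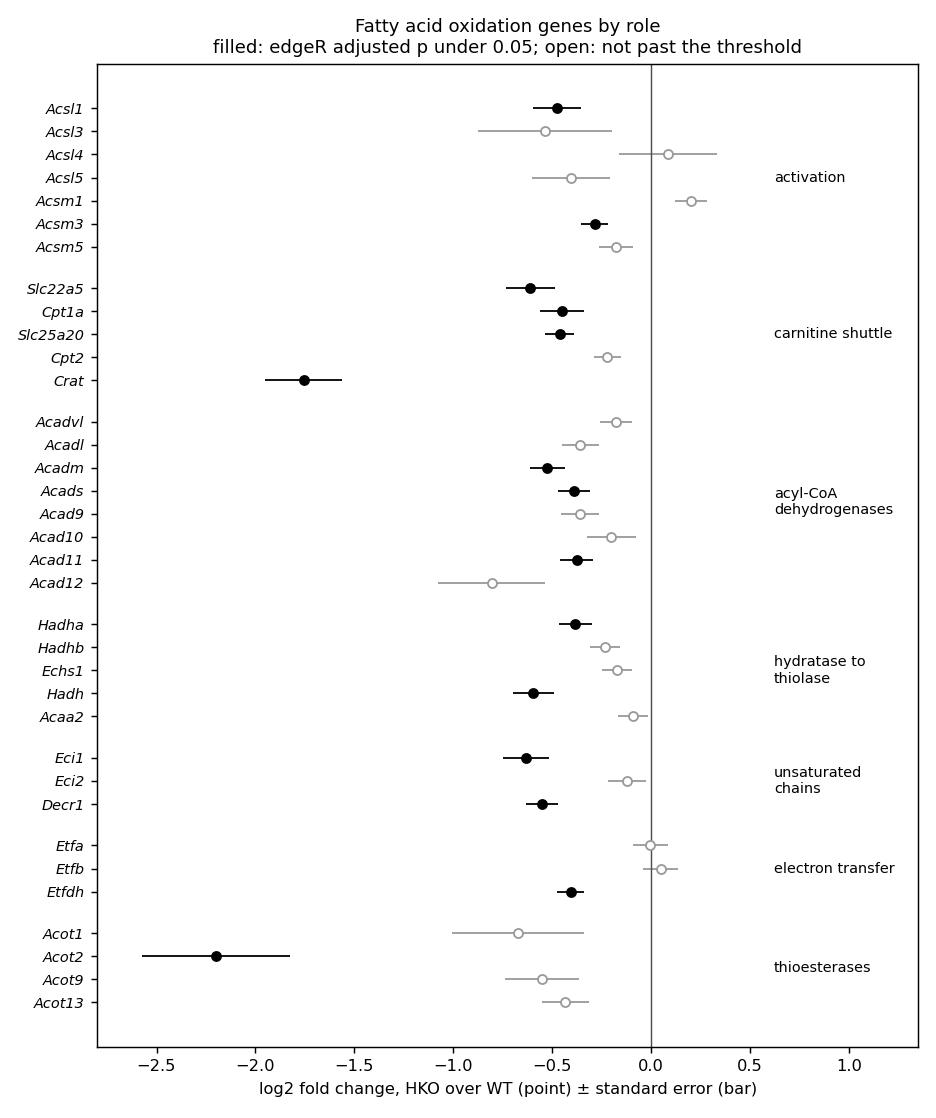
Log2 fold change (HKO over WT) of each of the 35 genes on the x axis, ordered by role on the y axis, with bars for the standard error of the fit and filled points for an adjusted p under 0.05 (edgeR). The 15 filled points all lie below 0, between -2.20 for Acot2 and -0.29 for Acsm3, and 3 open points, Acsm1, Acsl4 and Etfb, lie above 0.

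Per liver, the 35 genes together took 0.963%, 1.03%, 0.993% and 0.876% of all counts in WT livers 1 to 4 and 0.711%, 0.747%, 0.695% and 0.702% in HKO livers 1 to 4. The share was lower in every HKO liver than in any WT liver. Set against the WT mean of each gene, the median log2 ratio of the 35 genes was 0.04, 0.09, -0.08 and -0.04 in the WT livers and -0.38, -0.34, -0.41 and -0.29 in the HKO livers. Of the 35 genes, 23 to 27 lay below every WT liver in a given HKO liver. By the same count 6, 2, 15 and 12 genes in WT livers 1 to 4 lay below every other WT liver. The share of all tested genes was not computed for this count. Counted the other way, the 4 HKO livers lay wholly below the 4 WT livers for 20 genes (7.26% of all tested genes) and wholly above them for 0 (5.33%), and the 15 called genes are among the 20.

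**Figure D2:**
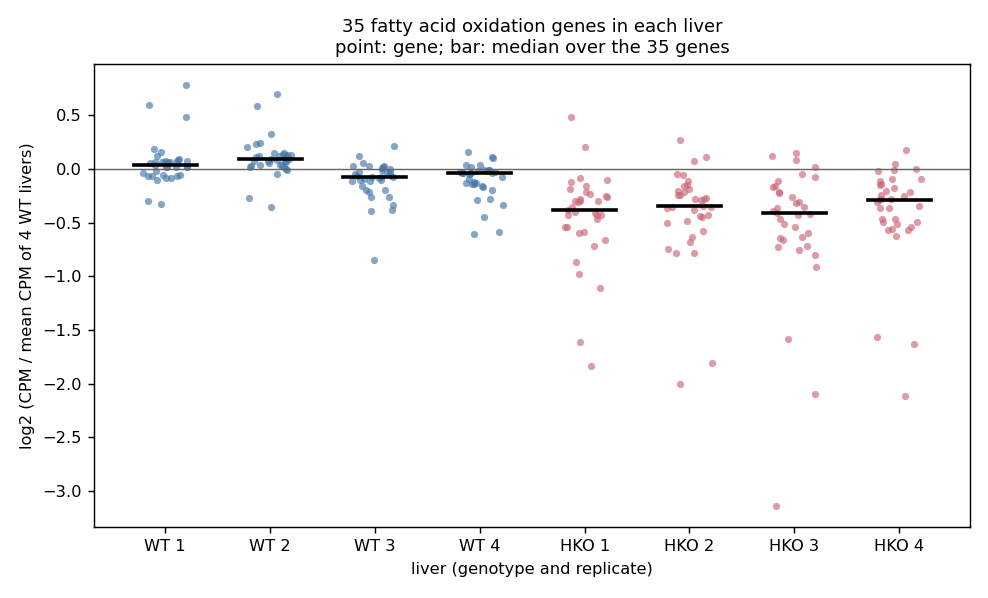
Each point is 1 of the 35 genes in 1 liver, as the log2 ratio of its CPM to the mean CPM of the 4 WT livers (y axis), with the liver on the x axis and a bar at the median. The medians run from -0.08 to 0.09 in the WT livers and from -0.41 to -0.29 in the HKO livers.

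The depth was enough for every member: the totals ran from 12174339 to 18735785 counts per liver, the lowest count of any of the 35 genes in any liver was 21.4, and no value lay under the floor of 3 counts. Values are given in CPM, which are counts set relative to the TMM-scaled size of each library. The library order numbers in the table put all HKO livers before all WT livers, so place in that order and genotype cannot be told apart. Mir33 was not analysed here, and the genotype is that of the labels. The samples looked like liver: 9 hepatocyte markers were tested, and they held 8.02% to 12.9% of the counts of each liver. In bulk tissue, fewer cells of a type and less RNA per cell cannot be told apart, and this applies to each value that follows.

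Per kilobase of their longest coding transcript, the 35 genes spanned a wide range of levels. In WT livers the highest were Acsl1 (409.5 CPM per kilobase), Acaa2 (403) and Acadm (291), and the lowest were Acad12 (1.45) and Acot9 (3.09). In HKO livers Acaa2 was highest (378), followed by Acsl1 (295), Etfa (229.9) and Acadm (202). Within a genotype the livers were close together, with a median coefficient of variation of 8.30% in WT and 10.1% in HKO livers, the widest being Acsl3 in WT (50.2%) and Acad12 in HKO (40.4%).

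Of the 7 acyl-CoA synthetases, which activate fatty acids by joining them to coenzyme A, 2 were called lower. Acsl1 (chr8:46471037-46536052) encodes the main long-chain synthetase of liver. Its CPM was 1502, 1699.7, 1731 and 1451 in WT livers 1 to 4 and 1099, 996, 1425 and 1073 in HKO livers 1 to 4. The groups did not overlap, but HKO liver 3 came close to the lowest WT liver. The log2 fold change was -0.47 ± 0.12 (SE) with an adjusted p of 0.0454, and the call was lost without any 1 of WT livers 1, 2 and 3 and HKO livers 1, 2 and 4 (adjusted p from 0.0899 to 0.155). Acsm3 (chr7:119760923-119784897), a medium-chain synthetase, was at 292, 271, 284 and 271 CPM in WT livers and at 228, 229, 225 and 234 CPM in HKO livers. Both groups were tight and apart, and the difference was small: -0.29 ± 0.07 on the log2 scale, adjusted p = 0.0348. It was called in 1 of the 8 fits that leave out a liver, the one without WT liver 4, and had an adjusted p from 0.0596 to 0.116 in the other 7.

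The other 5 synthetases were not called, and their groups overlapped. Acsl5, another long-chain enzyme, ranged from 419.7 to 772 CPM in WT and from 334 to 475 in HKO livers, with a log2 fold change of -0.40 ± 0.20. Acsl3, found at the endoplasmic reticulum and on lipid droplets, had -0.54 ± 0.34, a value that rests largely on WT liver 1 (64.7 CPM, against 20.9 to 33.6 in the other WT livers and 19.99 to 29.3 in HKO livers). Acsl4, which prefers arachidonic acid, had 0.08 ± 0.25 and was also highest in WT liver 1 (159.6 CPM, against 82.3 to 96.0 in the other WT livers and 92.5 to 146.9 in HKO livers). Acsm1 and Acsm5, neighbours of Acsm3 on chromosome 7, had 0.20 ± 0.08 and -0.18 ± 0.09. Acsm1 ranged from 210.3 to 252 CPM in WT and from 250.5 to 271 CPM in HKO livers, and Acsm5 from 107 to 117 and from 84.6 to 111 CPM. Acsm1 thus had the largest positive value of the 35 genes, with an adjusted p of 0.188.

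The carnitine shuttle had 4 of its 5 genes called lower, and the HKO livers lay below the WT livers for the 5 genes. Cpt1a (chr19:3323301-3385734) encodes carnitine palmitoyltransferase 1, the rate-limiting step, which exchanges coenzyme A for carnitine at the outer membrane and is inhibited by malonyl-CoA. It was at 723, 758, 698 and 609 CPM in WT livers 1 to 4 and at 602, 519, 448 and 471 CPM in HKO livers 1 to 4. WT liver 4 and HKO liver 1 nearly met; the other livers were well apart. Its log2 fold change was -0.45 ± 0.11 with an adjusted p of 0.0368, and the call was lost without any 1 of WT livers 1, 2 and 3 and HKO livers 2, 3 and 4 (adjusted p from 0.067 to 0.128). The direction was the same in every fit that was run.

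Slc25a20 (chr9:108662136-108684643), the carrier that exchanges acylcarnitine for carnitine across the inner membrane, was at 145, 162, 141 and 148 CPM in WT livers and at 111, 105, 111 and 106 CPM in HKO livers. The HKO livers were nearly equal and all below the lowest WT liver. The log2 fold change was -0.46 ± 0.07 (adjusted p = 0.00489), and the gene was called in each of the 8 fits that leave out a liver. Cpt2, which hands the acyl group back to coenzyme A inside the mitochondrion, ranged from 119 to 133 CPM in WT and from 105 to 110.1 CPM in HKO livers. Its groups did not overlap, but at -0.22 ± 0.07 it had an adjusted p of 0.0929 in edgeR and was past the threshold in DESeq2 (0.0362).

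Slc22a5 (chr11:53864542-53891704) encodes OCTN2, the plasma membrane carnitine transporter. It was at 32.2, 44.5, 46.6 and 37.7 CPM in WT livers and at 29.9, 23.5, 25.8 and 26.2 CPM in HKO livers, where HKO liver 1 came close to WT liver 1. The log2 fold change was -0.61 ± 0.12 (adjusted p = 0.0173, and 0.0733 without WT liver 2). Of its 45-base words, 29.6% also occur in transcripts of other genes, most often its neighbour Slc22a21, so the split of reads between them is uncertain.

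Crat (chr2:30400476-30415749), carnitine acetyltransferase, moves short acyl groups such as acetyl between coenzyme A and carnitine. It had the second largest difference of the 35 genes. Its CPM was 66.9, 80.2, 66.3 and 42.0 in WT livers 1 to 4 and 20.9, 18.3, 14.98 and 21.5 in HKO livers 1 to 4. Even WT liver 4, the lowest of its group, was well above every HKO liver. The log2 fold change was -1.76 ± 0.19 (adjusted p = 0.00202), and over the fits that leave out a liver it ran from -1.91 to -1.62 and was called in each of the 8. Dolpp1, on the opposite strand, overlaps the listed span of Crat, and whether the counts used strand is not given in the sources used here.

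**Figure D3:**
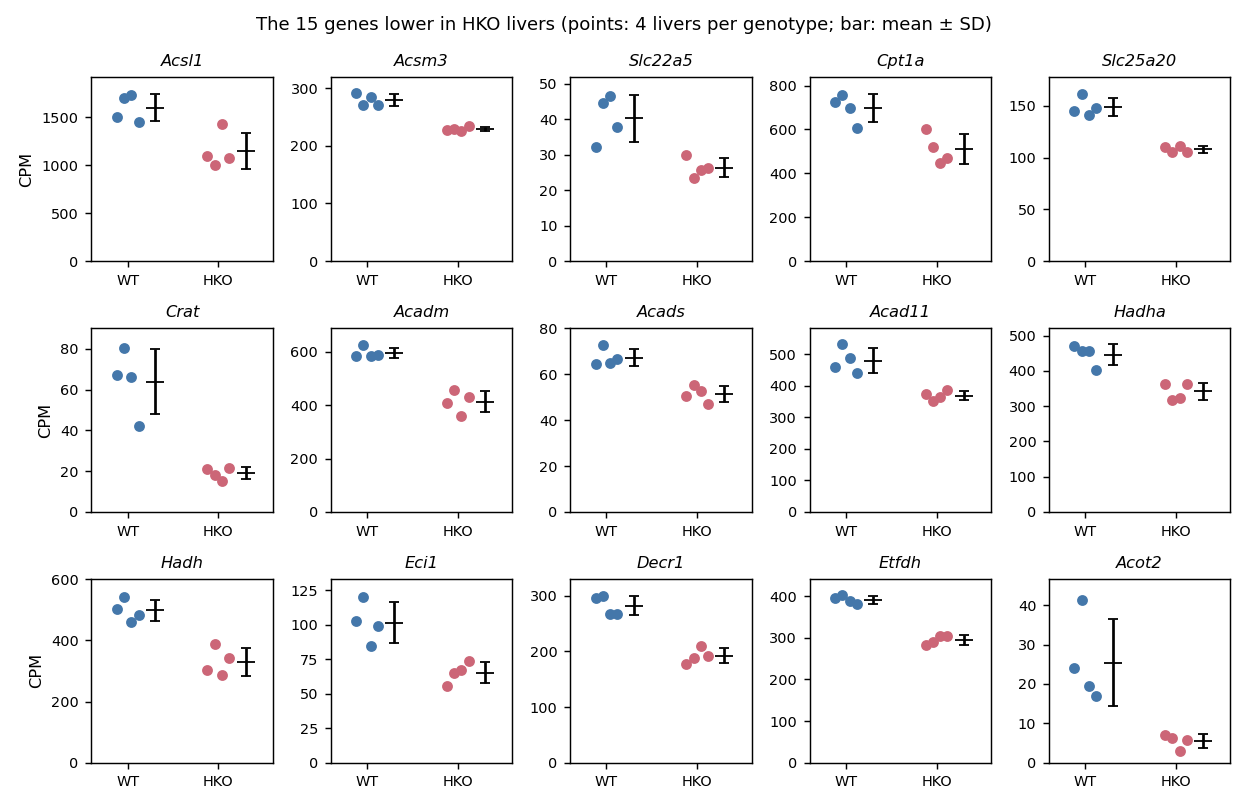
CPM (y axis, from 0) of the 15 called genes in each of the 4 WT and 4 HKO livers (points, replicates 1 to 4 from left to right), with a bar for the mean ± SD of each group. In each panel the 4 HKO points lie below the 4 WT points, by the widest margin relative to the WT mean in Crat (HKO mean 29.6% of WT) and Acot2 (21.9%).

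The acyl-CoA dehydrogenases open each round of the spiral and divide the work by chain length. For 8 of 8 genes the log2 fold change was negative, and 3 were called lower. Acadm (chr3:153922353-153944644), the medium-chain enzyme whose inherited loss in humans is the most common disorder of the pathway, was at 587, 626, 585 and 587 CPM in WT livers and at 409, 456, 361 and 431 CPM in HKO livers. No HKO liver came near the WT range. On the log2 scale the difference was -0.53 ± 0.09 (adjusted p = 0.00734), and the gene was called in each of the 8 fits that leave out a liver.

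Acads (chr5:115110299-115119347), the short-chain enzyme, was at 64.7, 72.96, 64.99 and 66.7 CPM in WT livers and at 50.5, 55.4, 52.6 and 47.0 CPM in HKO livers. The groups lay apart, by -0.39 ± 0.08 on the log2 scale (adjusted p = 0.0186; 0.0779 without WT liver 2 and 0.0562 without HKO liver 4). Acad11 (chr9:104063724-104127657), which acts on very long chains, was at 459, 531, 487 and 439.8 CPM in WT livers and at 374, 351, 365 and 386 CPM in HKO livers. It had -0.38 ± 0.08 with an adjusted p of 0.0248, and the call was lost without any 1 of WT livers 1 and 2 and HKO livers 2 and 3 (adjusted p from 0.0558 to 0.100).

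Acadl and Acad9 lay just outside the threshold. Acadl, the long-chain enzyme, ranged from 349 to 415 CPM in WT and from 267 to 337 CPM in HKO livers, with -0.36 ± 0.09 and an adjusted p of 0.0526. Acad9, known also as an assembly factor of respiratory complex I, ranged from 49.5 to 56.9 CPM in WT and from 36.3 to 45.4 CPM in HKO livers, with -0.36 ± 0.09 and an adjusted p of 0.0510. Neither gene's groups overlapped, and both were past the threshold in DESeq2 (0.0107 and 0.0212). Acadvl, the very-long-chain enzyme of the inner membrane, ranged from 221 to 263 CPM in WT and from 197 to 224 CPM in HKO livers, with -0.18 ± 0.08 (adjusted p = 0.250). Acad10 and Acad12, neighbours on chromosome 5 that share 21.7% and 22.4% of their 45-base words with other transcripts, most often each other's, had -0.20 ± 0.12 and -0.81 ± 0.27, and neither was called. Acad10 ranged from 14.9 to 20.2 CPM in WT and from 13.6 to 17.4 CPM in HKO livers, and Acad12 from 4.62 to 6.62 and from 1.82 to 4.81 CPM.

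In the steps that follow, from hydratase to thiolase, 5 of 5 genes had a negative log2 fold change and 2 were called. Hadha and Hadhb encode the alpha and beta subunits of the mitochondrial trifunctional protein, which carries out the last 3 steps on long chains, and lie head to head on chromosome 5 (Hadha at chr5:30119423-30154981 on the minus strand, Hadhb at chr5:30155253-30184594 on the plus strand). Hadha was at 469.6, 455, 455 and 403 CPM in WT livers 1 to 4 and at 362, 318, 322 and 364 CPM in HKO livers 1 to 4. Hadhb was at 183, 189.7, 165 and 173 CPM in WT livers and at 148, 153, 142.7 and 160.2 CPM in HKO livers. For both genes every HKO liver was below every WT liver.

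The log2 fold change of Hadha was -0.38 ± 0.08 (adjusted p = 0.0250), lost without any 1 of WT livers 1 and 2 and HKO livers 2 and 3 (adjusted p from 0.0628 to 0.0931). Hadhb, the gene with a miR-33 seed match, had -0.23 ± 0.08 and was not called (adjusted p = 0.101 in edgeR and 0.0518 in DESeq2). Whether the subunits differ from each other was not tested. Of the 45-base words of Hadhb 63.2% also occur in other transcripts, most often in Gm13910, which is not among the deposited genes.

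Hadh (chr3:131233420-131272102), the hydroxyacyl-CoA dehydrogenase for medium and short chains, was at 504, 544, 461 and 485 CPM in WT livers and at 302, 389, 287 and 342 CPM in HKO livers. The highest HKO liver was below the lowest WT liver by a clear margin. Its log2 fold change was -0.60 ± 0.10 (adjusted p = 0.00957), called in each of the 8 fits that leave out a liver. Echs1, the short-chain hydratase, and Acaa2, the mitochondrial thiolase, had -0.17 ± 0.08 and -0.09 ± 0.08 with overlapping groups and adjusted p of 0.231 and 0.552. Echs1 ranged from 238 to 270.4 CPM in WT and from 214 to 239.9 CPM in HKO livers, and Acaa2 from 570.5 to 633 and from 546 to 590.5 CPM.

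Double bonds of unsaturated fatty acids need auxiliary enzymes, and 2 of the 3 genes for them were called in each of the 8 fits that leave out a liver. Decr1 (chr4:15917240-15945378), 2,4-dienoyl-CoA reductase, was at 295, 299, 267 and 267 CPM in WT livers and at 178, 188, 210.3 and 190.99 CPM in HKO livers. The difference was -0.55 ± 0.08 on the log2 scale (adjusted p = 0.00357). Eci1 (chr17:24426683-24439317), the mitochondrial enoyl-CoA isomerase, was at 102, 120.04, 84.3 and 98.8 CPM in WT livers and at 55.6, 65.3, 67.1 and 73.5 CPM in HKO livers. The groups of both genes were apart, with a narrower gap for Eci1, whose difference on the log2 scale was -0.63 ± 0.12 (adjusted p = 0.0112). Eci2, the isomerase that also works in peroxisomes, ranged from 136 to 176 CPM in WT and from 126 to 152 CPM in HKO livers, with -0.12 ± 0.09 (adjusted p = 0.529).

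Of the 3 genes of the electron transfer flavoprotein and its oxidoreductase, 1 was called lower. Etfa and Etfb, which encode the subunits of the flavoprotein that takes electrons from the dehydrogenases, had log2 fold changes of -0.01 ± 0.09 and 0.05 ± 0.09, with adjusted p of 0.983 and 0.827, and the sign of Etfb turned with total count scaling (-0.04). Etfa ranged from 277 to 347 CPM in WT and from 295 to 338 CPM in HKO livers, and Etfb from 148 to 180.4 and from 157 to 183 CPM. Of the 45-base words of Etfb 67.5% also occur in other transcripts, most often in Gm45233, which is not among the deposited genes. Etfdh (chr3:79603788-79628768), the oxidoreductase that passes those electrons on to ubiquinone, was at 395, 403, 387 and 381 CPM in WT livers and at 282, 289, 304 and 305 CPM in HKO livers. These were among the tightest groups of the 35 genes and lay far apart, with -0.41 ± 0.07 (adjusted p = 0.00883), called in each of the 8 fits that leave out a liver. Ppid overlaps Etfdh on the opposite strand.

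Thioesterases undo the activation by splitting acyl-CoA into free fatty acid and coenzyme A, and the 4 genes all had negative log2 fold changes, of which 1 was called. Acot2 (chr12:83987861-83993876), the mitochondrial long-chain thioesterase, had the largest difference of the 35 genes. It was at 24.0, 41.3, 19.4 and 16.9 CPM in WT livers 1 to 4 and at 7.13, 6.32, 2.89 and 5.87 CPM in HKO livers 1 to 4. The groups did not meet, though the WT livers spread widely and WT liver 2 stood highest. On the log2 scale the difference was -2.20 ± 0.37 (adjusted p = 0.0187; 0.0563 without WT liver 1 and 0.0632 without HKO liver 4).

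Acot1 (chr12:84009502-84017670), the cytosolic enzyme next to it, shares 34.7% of its 45-base words with other transcripts and Acot2 29.6%, most often each other's, so the division of reads between the pair is uncertain. Acot1 ranged from 29.0 to 59.2 CPM in WT and from 13.2 to 31.9 CPM in HKO livers, with -0.67 ± 0.33 (adjusted p = 0.328). Their sum does not depend on that division: it was 56.2, 100.5, 57.002 and 45.9 CPM in WT livers and 39.0, 29.3, 16.0 and 36.9 CPM in HKO livers, again with every HKO liver below every WT liver. Acot2 made up 34.1% to 42.7% of the sum in the WT livers, and 15.9% to 21.6% in those of HKO mice.

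Acot9, at 5.05 to 5.75 CPM in WT and 2.75 to 4.59 CPM in HKO livers, had groups that did not overlap and -0.55 ± 0.19 (adjusted p = 0.125). It shares 23.9% of its 45-base words, most often with Acot10. Acot13 ranged from 46.6 to 60.8 CPM in WT and from 35.2 to 47.0 CPM in HKO livers, with -0.43 ± 0.12 (adjusted p = 0.0591, and 0.0238 in DESeq2).

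The 15 calls differed in how many of the 8 fits without a liver kept them. Slc25a20, Crat, Acadm, Hadh, Eci1, Decr1 and Etfdh, 7 genes, were called in every one of the 8 fits that leave out a liver, where 1.11% of all tested genes were called lower in every one. Slc22a5, Acads and Acot2 lost the call in 1 or 2 of these fits, Acad11 and Hadha in 4, Acsl1 and Cpt1a in 6 and Acsm3 in 7. Without WT liver 1 the count of called genes was 9 and without WT liver 2 it was 8, and leaving out any 1 of the other livers gave 10 to 15.

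Of 24 other tested genes that handle acyl-CoA, not all of them in mitochondria, 3 were called lower and 1 higher, with a median log2 fold change of -0.16. Those lower were Acsf2, an acyl-CoA synthetase (-0.51 ± 0.09, adjusted p = 0.0097), Ech1, a dienoyl-CoA isomerase (-0.57 ± 0.10, adjusted p = 0.0108), and Acat1, which interconverts acetyl-CoA and acetoacetyl-CoA (-0.46 ± 0.09, adjusted p = 0.0133). Slc27a5, a bile acid and very long-chain acyl-CoA synthetase, was the one higher (0.38 ± 0.10, adjusted p = 0.0488). Its call held in 1 of the 8 fits that leave out a liver, the one without HKO liver 3 (adjusted p from 0.0521 to 0.156 in the others), and was lost with total count scaling (0.106) and with the replicate number as a block (0.0691). The call of Acat1 was lost without WT liver 2 (0.0578). Acadsb, the dehydrogenase of short branched chains, had 0.34 ± 0.11 and was not called (adjusted p = 0.102), but was past the threshold in DESeq2 (0.0476). In this list of 24, 7 genes were lower and 3 higher at an unadjusted p under 0.05 in edgeR (10.7% and 9.08% of all tested genes). DESeq2 called 6 lower and 2 higher (5.07% and 3.11%). The 4 HKO livers lay wholly below the WT livers for 6 genes (7.26% of all tested genes) and above them for 2 (5.33%).

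Downstream of the spiral, the tricarboxylic acid cycle had 1 of 18 tested genes called lower and 0 higher in edgeR (4 and 2 at an unadjusted p under 0.05, and 3 and 1 in DESeq2), with a median log2 fold change of -0.09. The called gene was Suclg2, a subunit of succinyl-CoA synthetase (-0.44 ± 0.09, adjusted p = 0.0233), whose call was lost without any 1 of WT livers 1 and 2 and HKO livers 3 and 4 (adjusted p up to 0.0881). Of 70 nuclear genes of oxidative phosphorylation, 0 were called in either direction by edgeR, DESeq2 or limma-voom, with a median of -0.03 and, at an unadjusted p under 0.05 in edgeR, 2 lower (Ndufa10 and Ndufs1) and 0 higher. In that list of 70 the 4 HKO livers lay wholly below the WT livers for 3 genes (7.26% of all tested genes) and above them for 0 (5.33%).

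Among 23 regulators of the pathway, 2 were called lower and 2 higher, with a median log2 fold change of 0.05. Ppara itself had a mean ± SD of 671 ± 9.54 CPM in the WT livers, against 535 ± 34.8 CPM in the HKO livers (n = 4 each), a log2 fold change of -0.33 ± 0.08 (adjusted p = 0.0358). The call held in 1 of the 8 fits that leave out a liver, the one without HKO liver 1 (adjusted p from 0.0542 to 0.119 in the others), and was lost with the replicate number as a block (0.0829). Pparg, the adipogenic receptor that rises in fatty liver, was called lower (-1.25 ± 0.21, adjusted p = 0.00977), and the hepatocyte factor Hnf4a was called higher (0.36 ± 0.09, adjusted p = 0.0406). The call of Hnf4a held only without HKO liver 3 among those 8 fits (adjusted p from 0.0526 to 0.126 in the others) and was lost with total count scaling (0.151) and with the block (0.104). Ppargc1a, the coactivator of mitochondrial genes, had 0.10 ± 0.21 (adjusted p = 0.858). It was at 18.1, 20.3, 16.4 and 34.5 CPM in HKO livers 1 to 4 and between 19.8 and 21.6 CPM in WT livers, and without HKO liver 4 its log2 fold change was -0.19.

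Known PPARA target genes outside the mitochondrial pathway, which act in peroxisomes, lipid droplets and omega-oxidation among others, numbered 30 in the test. Of these 16 were called lower and 0 higher, where 3.37% and 1.66% of all tested genes were called. At an unadjusted p under 0.05 the counts were 26 and 0 (10.7% and 9.08% of all tested genes). They were 21 and 0 in DESeq2 (5.07% and 3.11%) and 16 and 0 in limma-voom (3.24% and 1.67%). The log2 fold change was negative for all 30, and the median was -0.96. The list was chosen with earlier results of these data known, so these counts are not an independent test. Acaa1b, a peroxisomal thiolase, had -1.59 ± 0.11 (adjusted p = 9.4e-05), and Vnn1, a pantetheinase, had -2.02 ± 0.15. Plin2, the lipid droplet coat protein, had -1.36 ± 0.14, and Pex11a, which takes part in peroxisome division, had -1.45 ± 0.16. Crot, the peroxisomal carnitine octanoyltransferase, had a mean ± SD of 1011 ± 93.8 CPM in the WT livers, against 759 ± 156 CPM in the HKO livers, and was not called (-0.41 ± 0.14, adjusted p = 0.123).

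**Figure D4:**
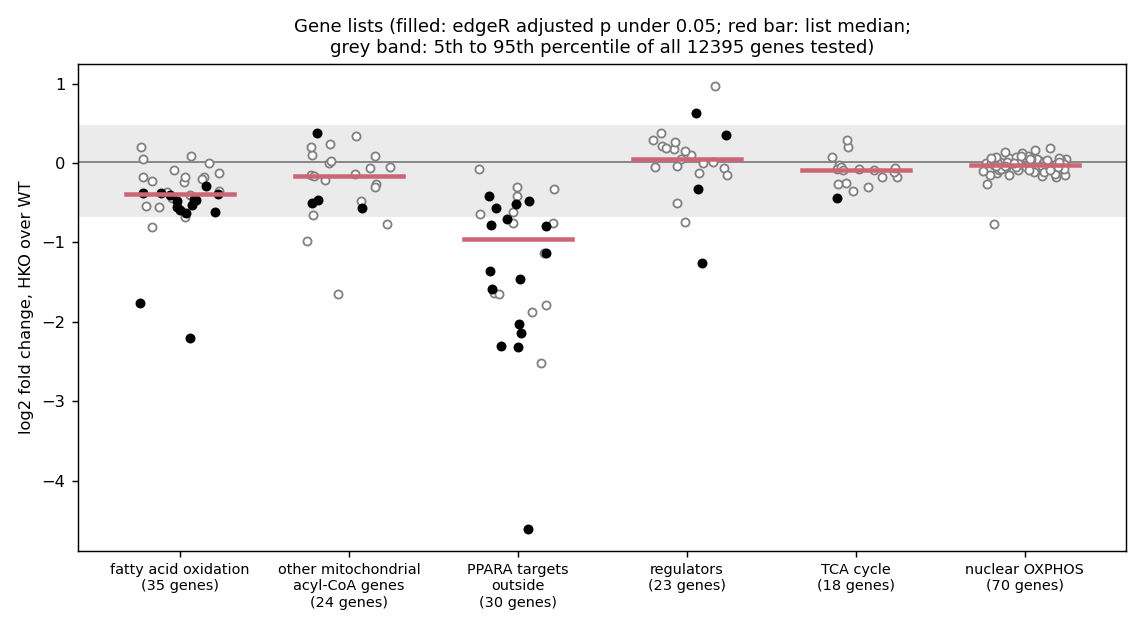
Log2 fold change (HKO over WT, y axis) of the 35 genes and of 5 other gene lists (x axis), with filled points for an adjusted p under 0.05 (edgeR), a red bar at each list's median and a grey band from the 5th to the 95th percentile of all 12395 tested genes (-0.66 to 0.47). The medians are -0.39 for the 35 genes, -0.96 for PPARA targets outside the pathway, and between -0.16 and 0.05 for the other 4 lists. The 35 genes and the lists were chosen with earlier results of these data known.

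Cell type and zone markers were read beside these values. Of 9 hepatocyte markers 4 were called higher in HKO livers and 0 lower, among them Cps1 (1.26 ± 0.18), while Alb had -0.03 ± 0.22, and their summed level ran from 91644 to 125506 CPM in WT and from 84570.2 to 136918 CPM in HKO livers. Of these 9, 3 had a negative log2 fold change, and the median was 0.36. Cps1 was called in each of the 8 fits that leave out a liver, Serpina1a and Fgb in 3 and Hnf4a in 1. Of 9 hepatic stellate cell markers the collagen genes Col1a1, Col1a2 and Col3a1 were called lower (-2.81, -1.96 and -1.87), the other 6 were not called, 3 of the 9 had a positive log2 fold change and the median was -0.18; the summed level ran from 472 to 628 CPM in WT and from 372 to 525 CPM in HKO livers. No marker was called by edgeR, DESeq2 or limma-voom, or had an unadjusted p under 0.05, among 8 of Kupffer cells and macrophages (summed 86.5 to 229 CPM in WT and 64.2 to 215 CPM in HKO livers), 6 of endothelial cells (59.1 to 192 and 98.0 to 221 CPM), 3 tested of cholangiocytes (40.5 to 51.0 and 30.9 to 111 CPM for 6 markers) and 2 tested of neutrophils. Of the lymphocyte, adipocyte and skeletal muscle markers, 0, 1 and 0 were tested. The 1 tested, the adipocyte marker Cfd, had a log2 fold change of -2.65 ± 0.86 and was not called (adjusted p = 0.141 in edgeR). Its unadjusted p in edgeR was 0.0162, and its groups overlapped (0.894 to 6.97 CPM in WT and 0 to 1.28 CPM in HKO livers). The summed lymphocyte level was 0.330 to 2.98 CPM in WT and 1.01 to 2.89 CPM in HKO livers. Among 10 pericentral genes 1 was called higher (Cyp1a2, 1.79 ± 0.23), and among 10 periportal genes 1 was called lower (Hsd17b13, -0.77 ± 0.13) and 1 higher (Ass1, 0.80 ± 0.17, called in 2 of the 8 fits that leave out a liver, those without WT liver 4 or HKO liver 3, with an adjusted p up to 0.087 in the others). The markers Tf, Ly6g, Ckm, Myh4 and Tnnt3 were not among the deposited genes and could not be read. No marker among the deposited genes was at 0 in all livers, and the part of cell and zone composition in the differences of the 35 genes was not tested.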

How the data were processed

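The deposited values are estimated counts, not normalized, that the authors obtained for each gene with the expectation-maximization method of Partek; the submitters' processing notes name Partek and STAR, and the genome build is not given in the sources used here. Of 17789 symbols matched to RefSeq on GRCm38.p6, 84.5% shared a start or end with the listed coordinates (33 of the 35 members), and most listed ends lie a base beyond RefSeq's. Of the deposited values 86.1% were whole within 0.005, 13 members had fractional values, and 0 columns were left unmapped. Since a small RNA library kit and removal of rRNA are both named in the labels, the library type is uncertain. Totals ran from 12174339 to 18735785 counts per liver, at which 3 counts, the floor used, equal 0.160 to 0.246 CPM; floors cover counting error only.

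Estimated counts were rounded and tested with edgeR 4.0.16 in R 4.3.3 (TMM scaling, its default filter with a minimum count of 10, robust quasi-likelihood fit, Benjamini-Hochberg adjustment over 12395 genes). Groups came from the labels, with 4 livers each and no covariate. Values after ± are standard errors unless marked SD. The fit was repeated with DESeq2 1.42.0, with limma 3.58.1 (voom), with RLE or total count scaling, without the filter or with a minimum of 10 counts in all livers, with the replicate number as a block, and without each liver in turn; the legacy quasi-likelihood method was added after seeing the data. The models were tested on simulated counts. Tables and plots used Python 3.11.15, pandas 2.3.3, numpy 2.4.6, scipy 1.17.1 and matplotlib 3.10.9.

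The members, the lists and the tests were chosen with earlier results of these data known. By rule, each called member, Cpt1a and Hadhb are given in every liver, other members by range, and from each other list at most the 4 genes with the smallest adjusted p, plus Ppara, Ppargc1a, Crot and Acadsb. A gene that this rule names is not reported here. Seed matches were sought in GENCODE M21 3′UTRs of at least 50 bases, and shared words of 45 bases in GENCODE M21 transcripts.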

Additional observations from a re-analysis of the deposited data

Results flagged for a closer look

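In 72 groups of 4 livers (each of the 35 genes and their summed share of counts, in each genotype), a liver was marked when it stood apart from the other 3 by more than Dixon's 95% critical value; chance marks about 1 in 20 groups, and 2 were marked. In WT liver 2, Acadm was at 626 CPM, where the other WT livers lay between 585 and 587 CPM. The same liver had Acad9 at 56.9 CPM, while the others of its genotype lay at 49.5 to 50.7 CPM. For both genes the lowest WT liver also lay above every HKO liver. Without WT liver 2 Acadm was called lower (adjusted p = 0.0380 in edgeR's quasi-likelihood test), and Acad9, not called with all livers, had an adjusted p of 0.166.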

How the results depend on the processing

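The count of genes called lower was 15 with the main settings, 19 in DESeq2, 16 in limma-voom, 15 with RLE scaling, 20 with total counts, 14 with no expression filter, 17 with at least 10 counts in every liver and 16 with the legacy quasi-likelihood method, which was chosen after seeing the data. It ran from 8 (without WT liver 2) to 15 when a liver was left out, and was 9 without WT liver 1. No alternative called any of the 35 genes higher. DESeq2 added Cpt2, Acadl, Acad9 and Acot13, and the fit with no filter lost Acsm3. The count over all tested genes was 624, rose to 1014 in DESeq2, and ran from 212 to 598 when a liver was left out; it was 272 without WT liver 1, 212 without WT liver 2 and 364 without HKO liver 4. The median log2 fold change of the 35 genes was -0.48 with total count scaling, where that of all tested genes was -0.08, and from -0.42 to -0.36 when a liver was left out.

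With the replicate number as a block, 12 genes were called lower, with Acsm3, Slc22a5, Acad11 and Hadha lost and Acot13 gained, and 456 genes were called in all. Livers with the same number did not deviate together (correlations of -0.06, 0.01, -0.08 and -0.15 over genes). Each WT liver correlated best with an HKO liver of another number (0.16, 0.08, 0.24 and 0.24 for WT livers 1 to 4), and each HKO liver with a WT liver of another number. Whether the numbers mark pairs was not tested.

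The sign turned in values near 0. Acsl4 was at -0.013 without WT liver 2, -0.011 without WT liver 3 and -0.075 without HKO liver 1, in a range from -0.075 to 0.36 over the fits that leave out a liver. Etfa was at 0.013, 0.010, 0.032 and 0.032 without WT livers 1, 2 and 4 and HKO liver 1, in a range from -0.070 to 0.032. Etfb was at -0.036 with total count scaling and at -0.011 without WT liver 3, in a range from -0.011 to 0.096, and Ppargc1a at -0.19 without HKO liver 4, in a range from -0.19 to 0.22. The cause of these changes was not tested. Cpt2, Acadl, Acad9, Hadhb and Acot13 changed sides of the threshold with the tool or the scaling. Sequence shared with other transcripts limits the values of Acot1, Acot2, Acot9, Acad10, Acad12, Slc22a5, Hadhb and Etfb.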
